A study of Mus musculus with 24 samples.

Results

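A set of 35 genes of the unfolded protein response and the integrated stress response was followed in mouse liver. The genes were chosen by symbol, for the sensors, transcription factors, targets, chaperones and degradation factors of these pathways, and each symbol matched 1 of the 41388 genes in the count files. All 35 passed the limit on low counts, which left 13052 genes to be tested. Liver RNA was sequenced from male mice on a C57BL/6J background, in 4 groups of 5 single-mouse libraries. All mice carried floxed Lpin1 alleles. WT mice were littermates without Cre, and Adn-Lpin1-/- mice carried a Cre driven by the adiponectin promoter, which deletes Lpin1 in adipocytes and not by design in liver. Mice of each genotype ate a low-fat diet (LFD, 10% of calories from fat) or a high-fat diet (HFD, 60%) and were fasted for 4 hours before the liver was taken. The diet lasted 16 weeks according to the sample labels and 5 weeks, from 8 weeks of age, according to the methods of the study. The comparisons asked whether loss of lipin 1 in fat tissue, or the diet, moved the stress genes of the liver.

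Total counts ran from 36260187 to 81072794 per mouse, and the group medians lay between 40777580 (WT LFD) and 62306028 (Adn-Lpin1-/- HFD). On LFD, the totals of WT mice (36260187 to 45999456) all lay below those of Adn-Lpin1-/- mice (51095146 to 61435897). The part of this gap in the genotype differences on LFD was not tested. Liver Lpin1 cannot serve as a check of a deletion made in adipocytes. On LFD it overlapped between the genotypes, at 142 to 673 CPM in WT and 322 to 1195 CPM in Adn-Lpin1-/- mice. It did not pass the test on LFD (log2 difference 0.78, adjusted p = 0.314 by edgeR) or on HFD (0.27, adjusted p = 0.734 by edgeR). The hepatocyte markers were high in every mouse, with Alb at 55514 CPM or more. Levels are given as CPM, the count of a gene relative to the total count of its library after TMM scaling, p-values come from the quasi-likelihood test of edgeR and were adjusted over all 13052 genes (Benjamini-Hochberg), and a gene was called at an adjusted p of 0.05 or less. In a bulk sample, fewer cells of a type and less RNA per cell cannot be told apart.

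The endoplasmic reticulum (ER) folds the secreted proteins of the hepatocyte, and an excess of unfolded protein there is sensed by IRE1 (Ern1), PERK (Eif2ak3) and ATF6. IRE1 splices the Xbp1 mRNA, PERK phosphorylates eIF2 and so raises translation of ATF4, and ATF6 is cut to release a transcription factor. The resulting factors switch on chaperones, ER-associated degradation and, along the ATF4 branch, amino acid genes and CHOP (Ddit3). Gene counts do not separate spliced from unspliced Xbp1 mRNA, phosphorylated from unphosphorylated eIF2, or cut from uncut ATF6.

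Many chaperone genes carry the ER stress response element in their promoter, the sequence that ATF6 and XBP1 bind with NF-Y. RefSeq promoters on GRCm38.p6 were found for 30 of the 35 genes; Manf, Hyou1, Sec61a1, Atf6 and Derl1 had no entry. The 250 bases before each start were searched on both strands for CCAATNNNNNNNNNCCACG. This element was present in 9 of the 30 promoters (30%) and in 37 of all 32851 promoters (0.113%). The promoter of Hspa5, which encodes the chaperone BiP, is shown whole because Hspa5 is the reference gene of the results that follow. The fixed letters of the element are in capitals, on the plus strand of chr2:34771840-34772089.
Hspa5: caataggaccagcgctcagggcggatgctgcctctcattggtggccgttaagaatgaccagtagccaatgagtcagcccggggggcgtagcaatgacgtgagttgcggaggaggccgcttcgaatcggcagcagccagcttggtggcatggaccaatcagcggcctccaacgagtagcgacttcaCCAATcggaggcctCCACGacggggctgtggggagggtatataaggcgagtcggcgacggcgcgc

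The other 8 promoters with the element are shown around each site, since their genes are compared with Hspa5 later. Capitals mark the fixed letters, which read CGTGG to ATTGG where the element lies on the opposite strand, and Hsp90b1 held 2 sites.
Calr, chr8:84847060-84847108, minus strand: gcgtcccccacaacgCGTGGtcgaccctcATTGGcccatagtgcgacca
Derl3, chr10:75893227-75893275, plus strand: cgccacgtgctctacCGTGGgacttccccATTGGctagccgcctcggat
Hsp90b1, chr10:86705623-86705671, minus strand: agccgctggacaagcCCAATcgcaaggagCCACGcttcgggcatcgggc
Hsp90b1, chr10:86705518-86705566, minus strand: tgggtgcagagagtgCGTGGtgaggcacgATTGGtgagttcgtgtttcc
Canx, chr11:50325785-50325833, minus strand: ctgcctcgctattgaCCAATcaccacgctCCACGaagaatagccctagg
Pdia6, chr12:17266476-17266524, plus strand: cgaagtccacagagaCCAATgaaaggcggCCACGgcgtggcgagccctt
Dnajc3, chr14:118937812-118937860, plus strand: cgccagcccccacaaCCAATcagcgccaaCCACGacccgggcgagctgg
Creld2, chr15:88819505-88819553, plus strand: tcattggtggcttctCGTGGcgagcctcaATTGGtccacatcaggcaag
Syvn1, chr19:6046517-6046565, plus strand: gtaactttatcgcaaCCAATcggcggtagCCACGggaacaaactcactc

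Other motifs were searched in the same way. The second ER stress element, ERSE-II, whose fixed letters are the capitals of the Herpud1 line that comes first here, was found in 10 of all promoters (0.0304%) and in that of Herpud1 alone among the genes described here, and TGACGTGG was found in none of the 30 against 0.563% of all promoters. TGATGNAA, which ATF4 and C/EBP factors bind, was present in the promoters of Atf3, Chac1, Asns and Herpud1, 4 of 30 (13.3%) against 3.45% of all. The Herpud1 element and the ATF4 sites of Atf3, Chac1 and Asns are given because the covariation of those genes with Hspa5 is set beside that of the chaperones later. A match describes the letters of the window and is no evidence of binding. TGACGTGG can overlap the ends of the other elements and was counted separately.
Herpud1, chr8:94386362-94386402, plus strand: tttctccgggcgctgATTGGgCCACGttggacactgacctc
Atf3, chr1:191183421-191183458, minus strand: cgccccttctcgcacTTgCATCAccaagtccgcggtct
Chac1, chr2:119351034-119351071, plus strand: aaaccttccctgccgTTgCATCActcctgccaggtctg
Asns, chr6:7693210-7693247, minus strand: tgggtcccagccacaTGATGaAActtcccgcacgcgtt

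Few of the 35 genes differed between the genotypes. On LFD 1 was called, Ern1, which was lower in Adn-Lpin1-/- livers, and 34 were not. On HFD 3 were called: Atf3 and Ddit3 were higher and Asns was lower. The called share of all tested genes was 14.4% on LFD (6.27% higher, 8.11% lower) and 18.6% on HFD (9.87% higher, 8.78% lower), so 1 of 35 (2.86%) and 3 of 35 (8.57%) lay below the background. The WT and Adn-Lpin1-/- mice did not overlap for 1 gene on each diet, Ern1 on LFD and Atf3 on HFD, against 10.1% and 11.4% of all tested genes. The median log2 difference of the 35 genes was -0.09 on LFD and 0.05 on HFD, beside 0.01 and 0.00 for all genes tested, and the median absolute difference was 0.14 and 0.13, beside 0.16 and 0.17. The medians moved with single mice: on LFD the median was -0.0048 without WT LFD mouse 1, -0.043 without WT LFD mouse 2 and -0.17 without Adn-Lpin1-/- LFD mouse 1, and on HFD it was 0.0080 without WT HFD mouse 3 and -0.00075 without WT HFD mouse 4.

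**Figure D1:**
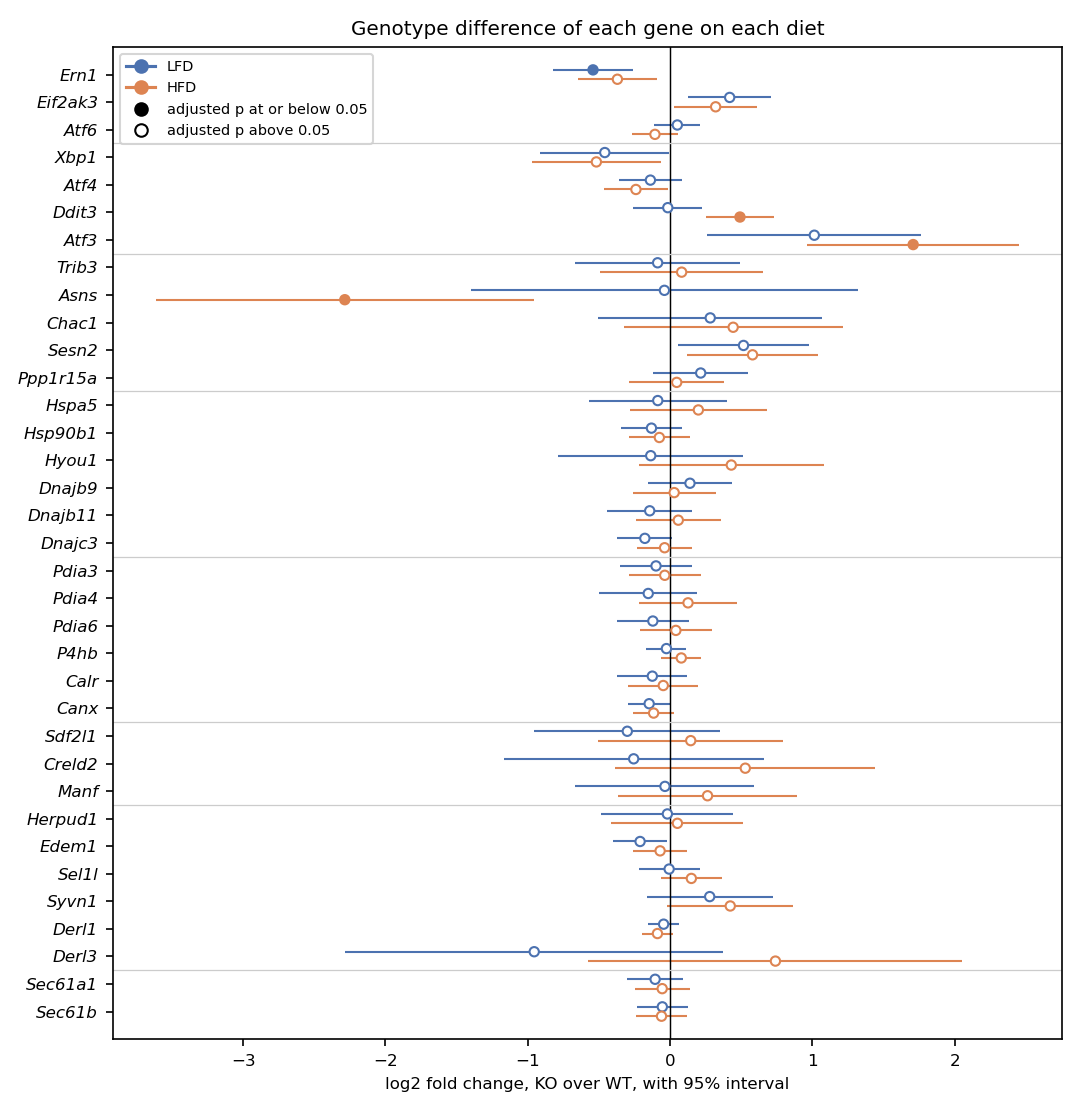
Log2 fold change of each of the 35 genes between Adn-Lpin1-/- and WT livers on each diet (x axis) with its 95% interval, for 5 mice a group. Filled points are the 4 called differences (Ern1 on LFD, and Ddit3, Atf3 and Asns on HFD), and the intervals of all 6 chaperone and co-chaperone genes include 0.

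The number of calls depended on the test. The study's own test, limma voom with sample quality weights, with the RNA pool of each group added as a sixth library, called 8 of the 35 genes on LFD and 10 on HFD, against 31.9% and 36.3% of all genes tested. Each pool holds RNA of the same 5 mice, so it is not an independent replicate. Without the pools the same test called 2 genes on each diet, against 17% of all genes on LFD and 18.7% on HFD.

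Among the sensors, 1 of 3 was called, Ern1, which was lower on LFD. Ern1 (ENSMUSG00000020715, chromosome 11, 106394650 to 106487852, minus strand, GRCm38) encodes IRE1, the kinase and nuclease that splices Xbp1. On LFD its CPM was 68.4, 83.6, 72.1, 63.0 and 61.5 in the WT mice and 50.1, 48.5, 43.6, 46.2 and 51.2 in the Adn-Lpin1-/- mice. Every knockout mouse lay below every WT mouse, and the log2 difference was -0.54 ± 0.13 (SE, n = 5 per group), 0.687-fold, with an adjusted p of 0.0109 by edgeR. This call was kept under all 29 alternative settings tried. Hepatocyte, stellate cell and endothelial markers also differed on LFD, as counted at the end, and their part in the Ern1 value was not tested. On HFD the values were 62.6, 75.5, 78.8, 67.9 and 99.6 in WT and 55.2, 44.3, 67.5, 52.5 and 77.9 in Adn-Lpin1-/- mice. The HFD groups overlapped, and the log2 difference of -0.37 ± 0.13 missed the threshold (adjusted p = 0.0585), although 8 of 29 alternatives called it. Between the diets the Ern1 effect differed by 0.17 (95% interval -0.22 to 0.57, adjusted p = 0.902), so the effects on LFD and HFD were not shown to differ.

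Eif2ak3, which encodes the eIF2 kinase PERK, is given by mouse because it came nearest the threshold without passing, a choice made after its values were seen. It had CPM of 11.1, 8.88, 10.6, 8.60 and 14.9 in WT LFD mice and 12.6, 18.6, 12.7, 12.7 and 15.7 in Adn-Lpin1-/- LFD mice. A single WT mouse, mouse 5, reached the knockout range. The log2 difference was 0.42 ± 0.14, and its adjusted p of 0.0511 missed the threshold by little: 10 of 29 alternatives called it, and it ran from 0.31 without Adn-Lpin1-/- LFD mouse 2 (adjusted p = 0.161) to 0.56 without WT LFD mouse 5 (adjusted p = 0.00637). On HFD the log2 difference was 0.32 ± 0.14 (adjusted p = 0.115), with WT at 8.66 to 11.2 CPM and Adn-Lpin1-/- at 10.995 to 14.9 CPM. Atf6, the third sensor, held between 62.1 and 90.4 CPM in all 20 mice, and its log2 difference was 0.05 (95% interval -0.11 to 0.21) on LFD and -0.11 (-0.27 to 0.06) on HFD.

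Of the 4 transcription factors, 2 were called, both on HFD. Xbp1 and Atf4 had lower means in Adn-Lpin1-/- livers on both diets without passing the test. Among HFD mice, Ddit3 and Atf3 were higher in Adn-Lpin1-/- than in WT livers. Xbp1 (chromosome 11, 5520659 to 5525893, plus strand) encodes the factor made from the spliced mRNA. Its CPM was 308, 301, 270, 209 and 179 in WT LFD and 239, 134, 190, 187 and 172 in Adn-Lpin1-/- LFD mice. On HFD it was 199, 371, 297, 182 and 336 in WT and 145, 164, 200, 167 and 292 in Adn-Lpin1-/- mice. Within each of the 4 groups the highest mouse had a far higher level than the lowest, and the groups overlapped on both diets. The log2 difference was -0.46 ± 0.22 on LFD (adjusted p = 0.167) and -0.52 ± 0.22 on HFD (adjusted p = 0.101). On HFD 26 of 29 alternatives did not call it. The HFD value was -0.39 without WT HFD mouse 2 (adjusted p = 0.248), -0.65 without WT HFD mouse 4 (adjusted p = 0.0476) and -0.71 without Adn-Lpin1-/- HFD mouse 5 (adjusted p = 0.0251).

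Atf4, the factor whose translation rises when eIF2 is phosphorylated, had CPM of 74.8, 72.2, 78.0, 69.9 and 58.2 in WT LFD and 69.2, 60.4, 63.2, 61.3 and 66.9 in Adn-Lpin1-/- LFD mice. On HFD the values were 67.5, 71.5, 71.8, 58.0 and 98.5 in WT and 58.8, 59.0, 67.9, 67.6 and 57.7 in Adn-Lpin1-/- mice. WT HFD mouse 5 stood above every other mouse. The log2 differences were -0.14 ± 0.11 (adjusted p = 0.418) and -0.24 ± 0.11 (adjusted p = 0.122). When single HFD mice were left out, the HFD value ran from -0.12 without WT HFD mouse 5 (adjusted p = 0.356) to -0.32 without WT HFD mouse 4 (adjusted p = 0.0365), and 27 of 29 alternatives did not call it. Atf4 was among the middle of the 35 genes in level, with 39.2 ± 5.52 CPM per kilobase of exon (SD, 20 mice), against 3.36 ± 0.561 for Ddit3 and 0.530 ± 0.352 for Atf3.

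Ddit3 (chromosome 10, 127290774 to 127296288, plus strand) encodes CHOP, the factor tied to cell death under lasting ER stress. Its CPM was 6.54, 5.38, 6.11, 5.76 and 5.42 in WT LFD and 6.10, 6.05, 5.76, 5.63 and 5.33 in Adn-Lpin1-/- LFD mice. On HFD it was 5.12, 3.99, 4.37, 5.31 and 4.98 in WT and 7.81, 5.20, 7.62, 7.13 and 5.67 in Adn-Lpin1-/- mice. The LFD groups covered the same range, and on HFD only Adn-Lpin1-/- mouse 2 reached down into the WT range. The HFD difference was 0.49 ± 0.11 in log2, 1.41-fold (adjusted p = 0.00694), and kept its call under all 29 alternatives. Part of the gap lay on the WT side: the 5 WT HFD mice were all below the 5 WT LFD mice, with a log2 diet difference of -0.30 ± 0.12 that was not called (adjusted p = 0.217). The HFD effect exceeded the LFD effect by 0.51 (95% interval 0.17 to 0.85) with an unadjusted p of 0.00545 by edgeR and an adjusted p of 0.516. The effect on HFD was therefore not shown to differ from that on LFD after adjustment.

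Atf3 (chromosome 1, counted over 191170296 to 191183340, minus strand), an early stress and injury factor, was scarce in all livers. Its CPM was 0.335, 0.877, 0.774, 0.469 and 0.838 in WT LFD, and 0.871, 2.39, 1.23, 0.846 and 1.34 in Adn-Lpin1-/- LFD mice. On HFD it was 0.438, 0.346, 0.571, 0.770 and 0.462 in WT and 2.14, 2.92, 1.02, 1.24 and 1.15 in Adn-Lpin1-/- mice, from 19 to 40 counts in WT and 72 to 196 counts in Adn-Lpin1-/- libraries. Every Adn-Lpin1-/- HFD mouse was above every WT HFD mouse, and the LFD groups overlapped. The log2 difference was 1.71 ± 0.36 on HFD, 3.27-fold (adjusted p = 0.00339), and was called under all 29 alternatives. On LFD it was 1.01 ± 0.36 (adjusted p = 0.0650), and 5 of 29 alternatives called it. Macrophage markers also differed on HFD, where 6 of 8 were called higher, Cd68 among them at 14.3 CPM in Adn-Lpin1-/- and 8.07 CPM in WT livers, and their part in the Atf3 value was not tested. The summed macrophage markers ran from 157 to 353 CPM in Adn-Lpin1-/- HFD and from 122 to 146 CPM in WT HFD mice, and none of the 8 was at 0 in all mice.

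**Figure D2:**
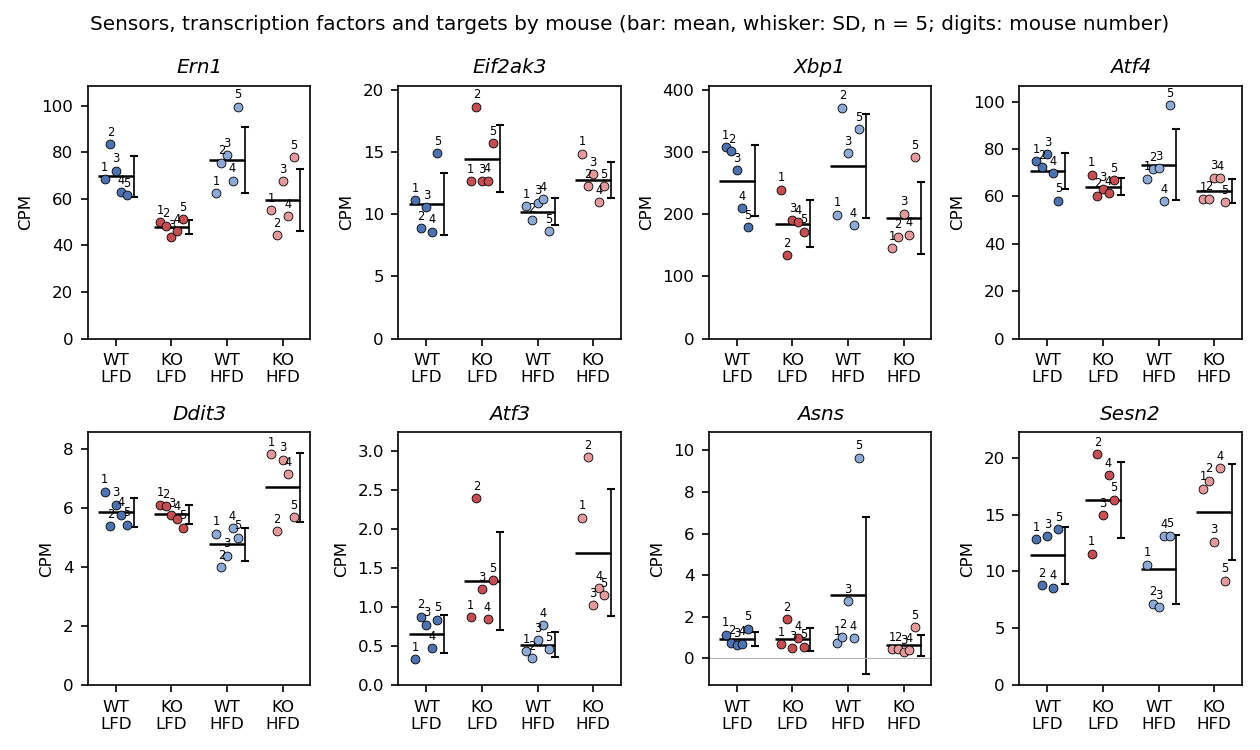
CPM of 8 sensor, transcription factor and target genes (y axis) in the 5 mice of each group, with the group mean (bar) and SD (whisker) and the mouse number beside each point. Ern1 was separated on LFD and Atf3 on HFD, while WT HFD mouse 5 alone carried Asns to 9.66 CPM.

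Of the ATF4 and CHOP targets, 1 of 5 was called, and its call rested on 1 mouse. Asns (chromosome 6, 7675169 to 7693254, minus strand), asparagine synthetase, had CPM of 1.13, 0.742, 0.625, 0.704 and 1.43 in WT LFD and 0.682, 1.87, 0.478, 0.961 and 0.557 in Adn-Lpin1-/- LFD mice. On HFD it was 0.730, 1.04, 2.73, 0.962 and 9.66 in WT and 0.432, 0.447, 0.305, 0.380 and 1.502 in Adn-Lpin1-/- mice. The HFD groups overlapped, and WT HFD mouse 5 stood far above the next mouse. The log2 difference was -2.29 ± 0.64 on HFD (adjusted p = 0.0180) and -1.16 without WT HFD mouse 5 (adjusted p = 0.124). The same mouse had the highest Atf4 and Ern1 of its group. The log2 difference on LFD was -0.04 (95% interval -1.40 to 1.32).

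The other 4 targets were not called in any comparison. Sesn2, a stress-induced inhibitor of mTORC1, came nearest, with a log2 difference of 0.52 ± 0.22 on LFD (adjusted p = 0.127) and 0.58 ± 0.22 on HFD (adjusted p = 0.0705). Its CPM was 8.57 to 13.7 in WT and 11.6 to 20.3 in Adn-Lpin1-/- mice on LFD, and 6.86 to 13.1 and 9.18 to 19.1 on HFD. Chac1, a glutathione-degrading enzyme, spread from 4.75 to 18.4 CPM within the Adn-Lpin1-/- HFD mice alone. Trib3, a pseudokinase that dampens AKT and ATF4 signalling, averaged between 9.20 and 10.0 CPM in the 4 groups, and Ppp1r15a, the stress-induced subunit that dephosphorylates eIF2, between 14.05 and 16.3 CPM. Herpud1, whose promoter holds ERSE-II and TGATGNAA, averaged 454.9 to 471.5 CPM in the 4 groups.

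No gene of the chaperone, isomerase, small ER protein, degradation and translocon groups was called by genotype or diet. The group means of Hspa5 were 543 ± 198, 512 ± 163, 438 ± 120 and 502 ± 70.7 CPM (SD, n = 5) in WT LFD, Adn-Lpin1-/- LFD, WT HFD and Adn-Lpin1-/- HFD mice. The genotype difference in log2 was -0.09 (95% interval -0.57 to 0.40) on LFD and 0.20 (-0.28 to 0.68) on HFD. For the more tightly held genes the intervals were narrower: P4hb, protein disulphide isomerase, differed by -0.03 (-0.17 to 0.11) and 0.08 (-0.06 to 0.22), and Hsp90b1, the ER chaperone GRP94, by -0.13 (-0.34 to 0.08) and -0.08 (-0.29 to 0.14).

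The co-chaperones Dnajb11 and Dnajc3, which steer BiP to its clients, averaged 84.2 and 204.6 CPM in WT LFD and 76.3 and 181 CPM in Adn-Lpin1-/- LFD mice, and their log2 differences on HFD were 0.06 and -0.04. The isomerases Pdia3, Pdia4 and Pdia6, which form disulphide bonds, had log2 differences of -0.10, -0.15 and -0.12 on LFD and of -0.04, 0.13 and 0.04 on HFD. The lectin chaperones Calr and Canx, which hold glycoproteins, had -0.12 and -0.15 on LFD and -0.05 and -0.12 on HFD. The 6 genes of this group thus had a negative sign on LFD, with no call, and 3 of 6 had a positive sign on HFD.

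Among the degradation genes, Edem1, which takes misfolded glycoproteins out of the folding cycle, had a log2 difference of -0.21 ± 0.09 on LFD (adjusted p = 0.126) and -0.07 ± 0.09 on HFD. Syvn1, the ubiquitin ligase HRD1, had 0.28 ± 0.21 and 0.42 ± 0.21 (adjusted p = 0.411 and 0.171), and its partner Sel1l had -0.01 and 0.15. Derl1 had -0.05 and -0.09, with the narrowest intervals of the set (-0.15 to 0.06 and -0.20 to 0.02). Derl3 had -0.95 and 0.74, with intervals of -2.28 to 0.37 and -0.57 to 2.05. The translocon subunits Sec61a1 and Sec61b, through which new proteins enter the ER, had -0.10 and -0.05 on LFD and -0.06 and -0.06 on HFD.

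By direction alone, 8 of the 35 genes were higher in Adn-Lpin1-/- livers on LFD (51.2% of all genes tested) and 21 on HFD (50.3%). The LFD count moved with single mice: it was 17 without WT LFD mouse 1, 12 without WT LFD mouse 2 and 13 without Adn-Lpin1-/- LFD mouse 3, and the log2 difference of Hspa5 became 0.07 without WT LFD mouse 1 and 0.06 without WT LFD mouse 2. The HFD count was 17 without WT HFD mouse 4.

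The chaperone genes varied widely between mice of the same group. Hspa5 had CPM of 768, 750, 399, 388 and 410 in the WT LFD mice and 773, 569, 399, 390 and 426 in the Adn-Lpin1-/- LFD mice. On HFD it was 492, 615, 422, 314 and 346 in WT and 473, 399, 556, 506 and 577 in Adn-Lpin1-/- mice. On LFD, WT mice 1 and 2 and Adn-Lpin1-/- mouse 1 stood well above the rest, with Adn-Lpin1-/- mouse 2 between. On HFD the WT mice spread evenly from mouse 4 to mouse 2, and the Adn-Lpin1-/- mice lay closer together.

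The same mice were high for Hyou1, Creld2 and Manf. Hyou1, an ER chaperone and nucleotide exchange factor for BiP, had 296 and 270 CPM in WT LFD mice 1 and 2 and 104 to 106 CPM in the other 3. In Adn-Lpin1-/- LFD mice it was 272, 178, 113, 108 and 130 CPM. Creld2, a small disulphide isomerase of the ER, had 84.8, 61.8, 16.1, 20.8 and 16.4 CPM in WT LFD and 72.7, 32.6, 20.4, 22.5 and 19.6 CPM in Adn-Lpin1-/- LFD mice. Manf, a secreted ER stress protein, had 86.8, 89.99, 35.6, 40.2 and 40.9 CPM in WT LFD and 102, 57.1, 39.7, 36.6 and 50.8 CPM in Adn-Lpin1-/- LFD mice. Hyou1, Creld2 and Manf were picked for this description after their values were seen. Over all 35 genes, WT LFD mouse 1 held the highest or second highest value of its group for 25 and WT LFD mouse 2 for 24. Adn-Lpin1-/- LFD mouse 1 did so for 25, with the highest value for 23, and Adn-Lpin1-/- LFD mouse 2 for 26. The same count over all genes tested was not made.

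**Figure D3:**
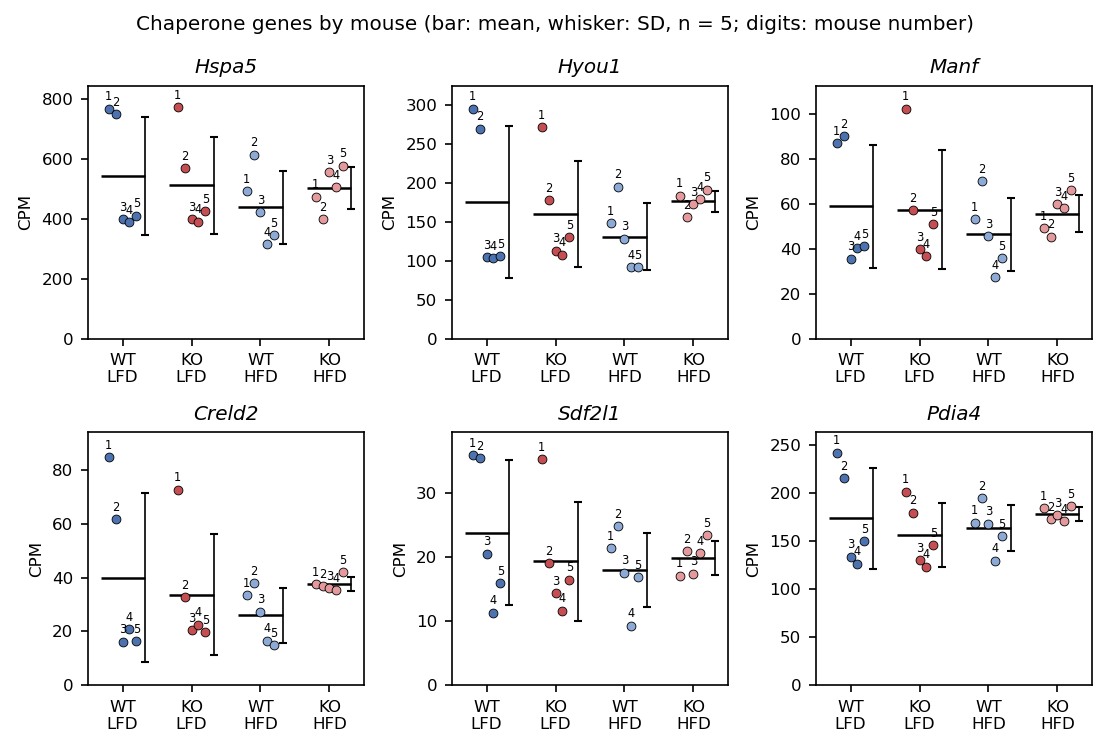
CPM of 6 chaperone and ER protein genes (y axis) in the 5 mice of each group, with the group mean (bar), the SD (whisker) and the mouse number beside each point. WT LFD mice 1 and 2, Adn-Lpin1-/- LFD mouse 1 and WT HFD mouse 2 were high for all 6, and the Adn-Lpin1-/- HFD mice lay close together.

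The size of this spread was set beside that of all genes. The SD within groups of log2(CPM + 0.5) had a median of 0.232 over the 35 genes and 0.179 over all genes tested, and 13 of the 35 lay above the 90th percentile. Derl3, a derlin of the degradation channel, was the most variable at 1.07 (percentile 99.8), next to Asns at 0.749 and Creld2 at 0.745 (percentile 99.2). Sdf2l1, Hyou1 and Manf had 0.540, 0.535 and 0.517. At the other end Derl1 was held at 0.0664 (percentile 1.43), P4hb at 0.0905 and Canx, the lectin chaperone calnexin, at 0.104. The SD of Hspa5 was 0.509 in WT and 0.422 in Adn-Lpin1-/- mice on LFD, and 0.388 and 0.211 on HFD, and that of Creld2 was 1.12 in WT LFD and 0.0974 in Adn-Lpin1-/- HFD mice. The difference in spread between groups was not tested.

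**Figure D4:**
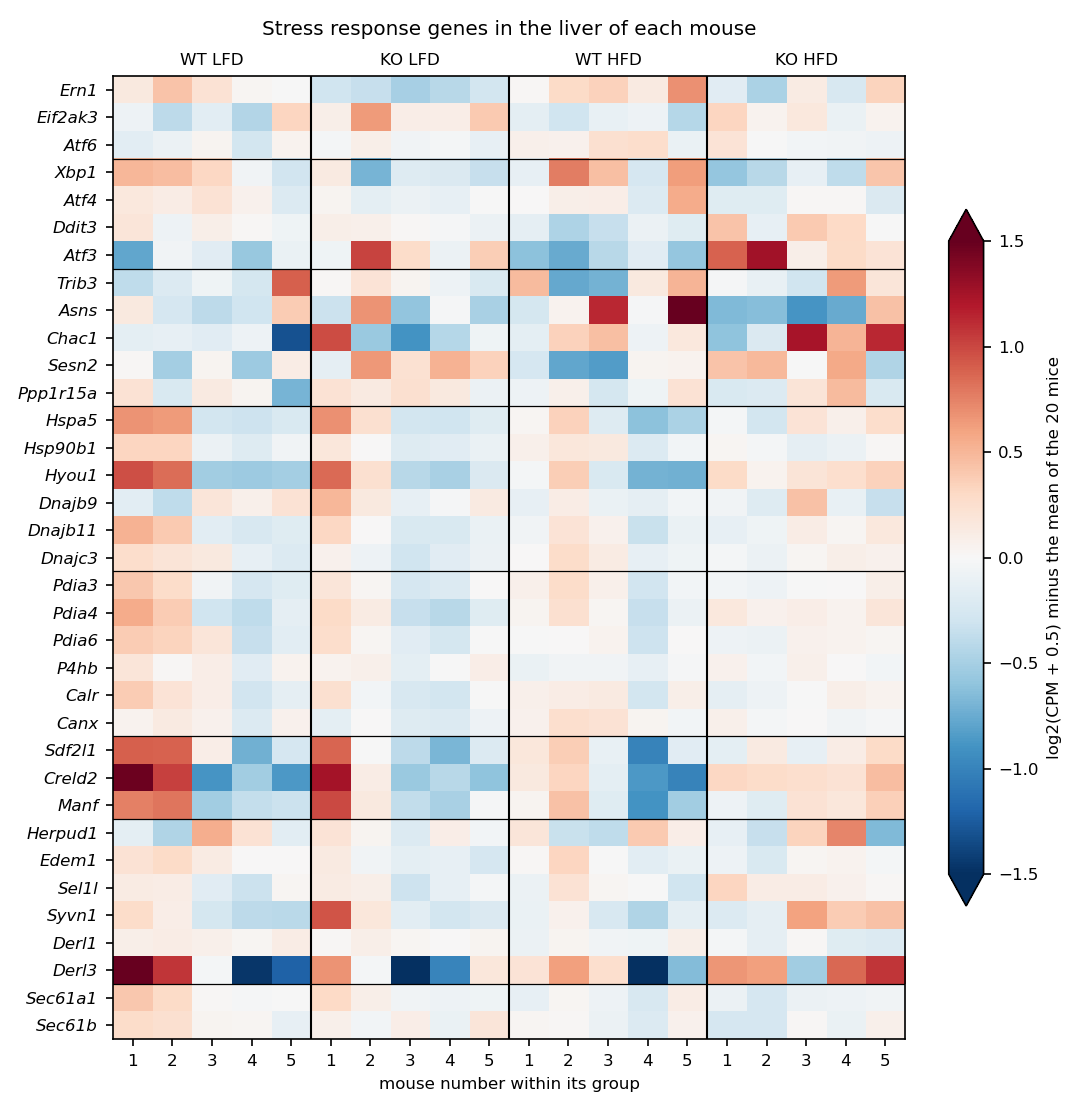
Log2(CPM + 0.5) of each of the 35 genes (rows, by role) in each of the 20 mice (columns, by group) as the deviation from the mean of the 20 mice. WT LFD mouse 1, Adn-Lpin1-/- LFD mouse 1 and WT HFD mouse 2 lie above the mean for 28, 29 and 28 of the 35 genes, and Adn-Lpin1-/- LFD mouse 4 and WT HFD mouse 4 for 5 and 6.

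Covariation between mice was measured against Hspa5, after the mean of each group had been taken away so that group differences could not enter. Pearson's r was computed over the 20 mice for the other 34 genes, with 100000 permutations of the mice within groups, and adjusted over the 34. A total of 12 of the 34 (35.3%) had r of 0.8 or more, against 35 of 13051 tested genes (0.268%). Manf (r = 0.979, rho = 0.982), Hyou1 (r = 0.972, rho = 0.940), Dnajb11 (0.944, 0.953), Pdia4 (0.930, 0.949), Creld2 (0.928, 0.880) and Pdia3 (0.921, 0.946) were the 6 genes with the highest r of all 13051. The permutation p was 1e-05 for Manf, Hyou1, Pdia3 and Syvn1, the smallest the permutations can give (adjusted 8.5e-05). Hsp90b1, Sdf2l1, Edem1, Syvn1, Sec61a1 and Dnajc3 followed with r of 0.818 to 0.885. In all, 18 of the 34 passed at an adjusted permutation p of 0.05 for r and 17 for rho, all with a positive r.

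**Figure D5:**
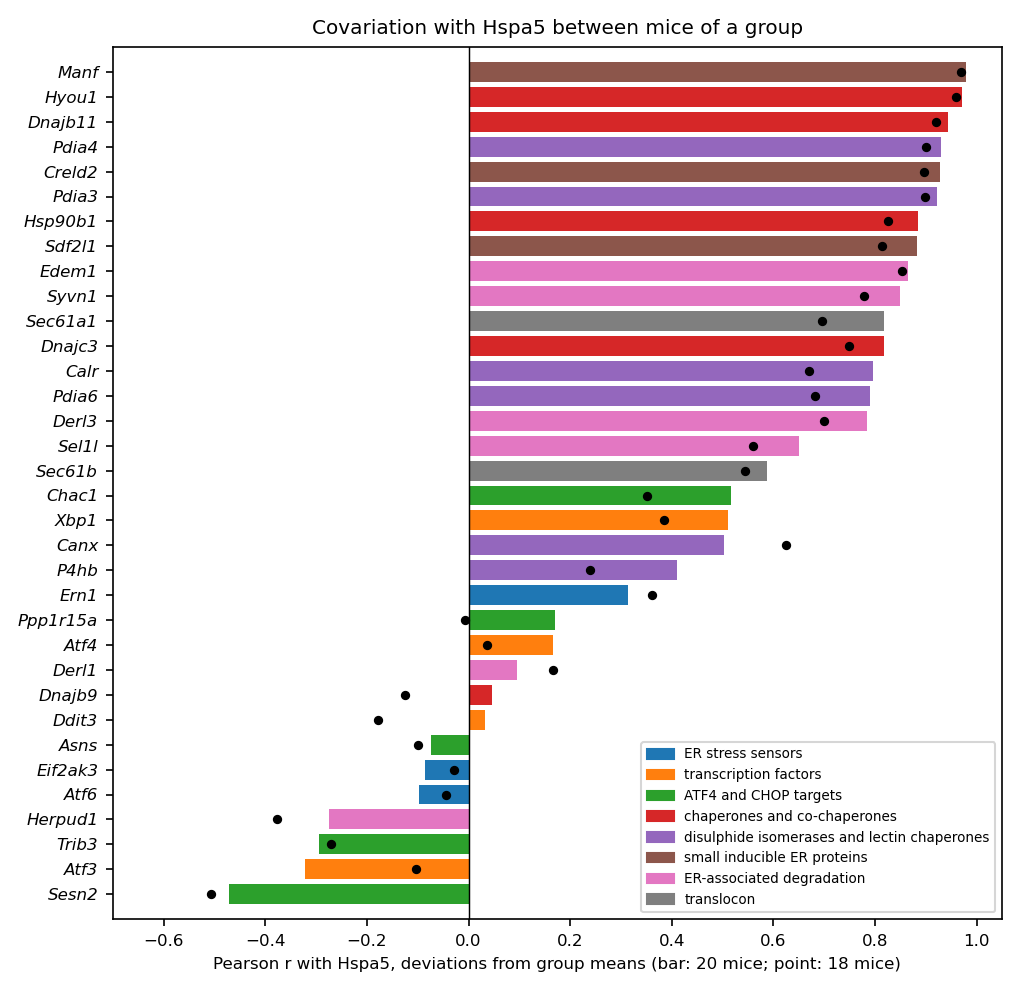
Pearson's r of each gene with Hspa5 over 20 mice (bars, coloured by role), from deviations of log2(CPM + 0.5) from group means, and over 18 mice without WT LFD mouse 1 and Adn-Lpin1-/- LFD mouse 1 (points). The bars of 12 genes reach 0.8, and those of the ATF4 and CHOP targets lie between -0.471 and 0.516.

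The highest mice were then left out. Without the 2 mice farthest from the median, WT LFD mouse 1 and Adn-Lpin1-/- LFD mouse 1, r was 0.969 for Manf, 0.959 for Hyou1, 0.921 for Dnajb11 and 0.896 for Creld2, and 9 genes kept r of 0.8 or more. Since a few LFD mice stood well above the others, r was also taken within each diet. In the 10 HFD mice, where none stood apart in this way, r was 0.978 for Manf, 0.931 for Hyou1, 0.917 for Edem1 and 0.439 for Sec61a1, and 8 genes reached 0.8. In the 10 LFD mice 15 did.

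None of the sensors and transcription factors passed the test for r. Over the 20 mice r with Hspa5 was 0.313 for Ern1, -0.0858 for Eif2ak3 and -0.0982 for Atf6. It was 0.166 for Atf4 (adjusted permutation p = 0.673), 0.0333 for Ddit3 (adjusted permutation p = 0.872) and -0.322 for Atf3, and among the targets it ran from -0.471 for Sesn2 to 0.516 for Chac1, which passed for r (adjusted permutation p = 0.0287) and not for rho (adjusted permutation p = 0.0828). Xbp1 had r = 0.511 (adjusted permutation p = 0.0576) and rho = 0.553 (adjusted permutation p = 0.0458), with r = 0.385 without the 2 mice. Among the ER genes, Herpud1 (-0.274), Dnajb9 (0.0458), a BiP co-chaperone that XBP1 induces, and Derl1 (0.0947) had r near or below 0. Among the 8 genes with the ER stress element shown above other than Hspa5, r ran from 0.502 (Canx) to 0.928 (Creld2) with a median of 0.807, and among the 21 with a promoter entry and no such element from -0.471 to 0.944 with a median of 0.313. Dnajb11, with no element in its window, had the highest r of the 21 and Canx the lowest of the 8. The 21 include sensors, transcription factors and ATF4 and CHOP targets, so the medians compare unlike kinds of gene. Among the ER genes of the 21, r ran from -0.274 (Herpud1) to 0.944 (Dnajb11), with Pdia4 at 0.930 and Pdia3 at 0.921. Manf, Hyou1, Sec61a1, Atf6 and Derl1 had no promoter entry and are in neither set (r of 0.979, 0.972, 0.818, -0.0982 and 0.0947).

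No library measure followed Hspa5 past the test. Over 11 measures, the largest r was 0.436 for the summed pancreatic acinar markers (rho = 0.442, adjusted permutation p = 0.375, r without the 2 mice 0.345), followed by 0.382 for the share of counts on rRNA genes (rho = 0.388, adjusted permutation p = 0.375, r without the 2 mice 0.467). Total counts had r = 0.150 (adjusted permutation p = 0.704), summed hepatocyte markers -0.166 (0.704) and summed B cell and plasma cell markers -0.181 (0.704). The acinar markers were low, with a sum over 9 genes of 10.3 to 39.5 CPM, and 1 of the 9 was at 0 in all mice. That sum was almost all Cela1 (group means 14.1 to 33.4 CPM), since the other 8 genes averaged at most 0.324 CPM, and most of the B cell and plasma cell sum was Sdc1 (group means 154 to 168 CPM), so both values describe mainly those single genes. Most of the hepatocyte sum was likewise Alb (group means 63251 to 80047 CPM).

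Diet alone moved none of the 35 genes past the threshold of edgeR. These comparisons share their mice with the genotype comparisons. In WT mice 0 of 35 were called between HFD and LFD, against 1.1% of all tested genes, and 4 (11.4%) had an unadjusted p under 0.05, against 15.8% of all genes. In Adn-Lpin1-/- mice 0 were called, against 2.46%, and 2 (5.71%) had an unadjusted p under 0.05, against 16.1% of all genes. DESeq2's Wald test also called 0 in both genotypes, against 3.06% of all genes in WT and 4.42% in Adn-Lpin1-/- mice. The voom test called 1, Atf6 in WT, against 5.13% of all genes. The WT groups did not overlap for 1 gene, Ddit3 (background 3.73%), and the Adn-Lpin1-/- groups for 0 (background 4.06%). The largest diet difference was that of Asns in WT mice, 1.70 ± 0.64 in log2 (adjusted p = 0.194), and Atf6 had a log2 diet difference of 0.20 ± 0.08 in WT mice (adjusted p = 0.219). For the interaction of genotype and diet 0 of 35 genes were called, as were 0.0% of all genes tested. Ddit3 and Asns (5.71% of the 35 genes) had an unadjusted p under 0.05, against 7.19% of all genes. DESeq2 and voom called 0 of the 35 too, against 0.23% of all genes by DESeq2's Wald test and 0.0% by voom.

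Levels differed widely. Per kilobase of exon, P4hb was the most abundant of the 35 genes with 499 ± 31.7 CPM (SD, 20 mice), followed by Calr, the lectin chaperone calreticulin, with 269 ± 34.5 and Herpud1, an anchor of the degradation complex, with 198 ± 49.8. Hspa5 came next with 142 ± 39.7 CPM per kilobase. P4hb stood apart, while Calr and Herpud1, and Herpud1 and Hspa5, overlapped within 1 SD. The lowest were Atf3 and Asns, at 0.530 ± 0.352 and 0.5003 ± 0.745 CPM per kilobase, which did not differ beyond their spread, and Eif2ak3 at 2.22 ± 0.470. Of the sensors, Atf6 (8.21 ± 0.775) and Ern1 (7.77 ± 1.83) did not differ beyond their spread, and both lay above Eif2ak3.

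Other genes of the pathways were counted in the same way. Of 174 tested genes on 8 further lists, 5 were called higher and 9 lower on LFD, where 6.27% and 8.11% of all genes were, and 3 higher and 13 lower on HFD, where 9.87% and 8.78% of all genes were, with median log2 differences of -0.02 and -0.04. Ppp1r15b, the constitutive partner of the eIF2 phosphatase, was lower by genotype on both diets (-0.24 and -0.26, adjusted p = 0.0252 and 0.0136). Of 20 other ATF4 and CHOP targets, Nupr1 (0.89, adjusted p = 0.0201) and Mthfd2 (0.83, adjusted p = 0.0346) were higher on LFD, and none was called on HFD. In ER-associated degradation 3 of 23 further genes were lower on LFD and 4 on HFD. Sec24a, a cargo adaptor of COPII vesicles, fell by 0.59 on LFD and 0.57 on HFD on the log2 scale with no overlap between the genotypes (adjusted p = 0.0002 and 0.000288).

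Genes on other lists also followed Hspa5 between mice. Those named next were picked after their r was seen. Of the listed genes, 6 of 30 translocon, signal peptidase and glycosylation genes and 3 of 20 COPII transport genes had r of 0.8 or more with Hspa5, among them the signal peptidase subunit Spcs2 (0.842), the oligosaccharyltransferase subunit Stt3a (0.835), Tmed9 (0.885) and Sec23b (0.882). The oxidase Ero1lb had 0.905 and came next after the 6 genes with the highest r. Genes outside the ER reached 0.8 as well, among them Stip1 (0.824) and Hsp90aa1 (0.815), 2 of 16 cytosolic heat shock genes, and Cct3 (0.865), a subunit of the cytosolic chaperonin. None of 20 ATF4 and CHOP targets, 14 eIF2 kinase and phosphatase genes or 12 mitochondrial chaperones and proteases reached it, and their median r was -0.02, -0.01 and 0.02. Cell type markers differed by genotype. On LFD 2 of 7 hepatocyte markers were lower. Higher on LFD were 5 of 9 stellate cell, 0 of 8 macrophage and 3 of 6 endothelial markers. On HFD 5 of 7 hepatocyte markers were lower. Higher on HFD were 4 of 9 stellate cell, 6 of 8 macrophage and 4 of 6 endothelial markers. The 2 adipocyte markers tested were higher on both diets, and the 1 acinar marker tested was lower on LFD only. No cholangiocyte or B cell and plasma cell marker was called. Of all genes tested, 6.27% were called higher and 8.11% lower on LFD, and 9.87% and 8.78% on HFD. Hepatocyte markers summed to 81037 to 105247 CPM in Adn-Lpin1-/- HFD and 97872 to 124461 CPM in WT HFD mice, most of it Alb (group means 63251 and 80047 CPM). The part of such shifts in the values of the 35 genes was not tested.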

How the data were processed

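Liver RNA-seq of 20 single-mouse libraries, 5 per group, was analysed. The 4 pooled libraries hold RNA of the same mice and entered 1 alternative only. The authors aligned reads with STAR 2.5.1a to GRCm38 and counted them per gene with featureCounts 1.4.6-p5. The deposited files give raw counts, and beside them CPM and RPKM columns made by the authors, which were not used here. CPM in the text were computed from the counts with TMM scaling. rRNA genes (355) were left out and 13052 genes above 1 CPM in 4 or more libraries were kept. Gene symbols came from GENCODE mouse release 21 and matched 97.5% of genes.

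Group differences were tested with edgeR 4.0.16 (R 4.3.3), by the quasi-likelihood test with 1 mean per group and Benjamini-Hochberg adjustment. The p-values set each group difference against the spread between mice taken as independent. The labels do not tie mice to litters or cages, so that independence could not be checked. DESeq2 1.42.0 and limma 3.58.1 voom were alternatives, with other filters, a trend for GC content and length, a block for the replicate number, and fits without each mouse. On simulated counts for the LFD comparison over 13052 genes, edgeR recovered 99 of 100 genes changed 4-fold and 87 of 100 changed 2-fold, with 10 false calls. Correlations used scipy 1.17.1.

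The members and gene lists were chosen with earlier results of these data known. Values by mouse were given for genes called in any comparison and for Hspa5, Atf4, Ddit3 and Xbp1, and also for Eif2ak3, Hyou1, Creld2 and Manf, which were picked after their values were seen. From the other lists at most the 3 called genes with the lowest adjusted p in each direction were named, and genes named for their r with Hspa5 were picked after it was seen.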

Additional observations from a re-analysis of the deposited data

Results flagged for a closer look

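A mouse stood apart from the other 4 of its group, by Dixon's 95% limit on the gap over the range, in 11 of 140 combinations of gene and group, where chance alone flags about 1 in 20, or 7. They concerned 10 genes. The highest mice were Adn-Lpin1-/- HFD mouse 1 for Atf6 (86.8 CPM), WT LFD mouse 5 for Trib3 (17.6 CPM), and Adn-Lpin1-/- LFD mouse 1 for Creld2 (72.7 CPM) and Syvn1 (209.7 CPM). For Asns, mouse 5 was the highest in both HFD groups, at 9.66 CPM in WT and 1.502 CPM in Adn-Lpin1-/- mice. The lowest mice were WT LFD mouse 5 for Chac1 (2.74 CPM), WT LFD mouse 4 for Canx (242 CPM), WT HFD mouse 4 for Pdia6 (201 CPM) and Calr (634 CPM), and Adn-Lpin1-/- HFD mouse 2 for Sec61a1 (136.9 CPM). WT LFD mouse 5 was thus the highest of its group for Trib3 and the lowest for Chac1, although both genes are targets of the ATF4 and CHOP factors.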

How the results depend on the processing

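The number of the 35 genes called by genotype on LFD, 1 with edgeR, was 2 with DESeq2 size factors, 3 with DESeq2's Wald test, 2 with voom, 8 with voom and the pools, and 1 to 3 when each mouse was left out in turn, with 3 without Adn-Lpin1-/- LFD mouse 1 or 4 and 2 without WT LFD mouse 5, Adn-Lpin1-/- LFD mouse 3, WT HFD mouse 5 or Adn-Lpin1-/- HFD mouse 2 or 4. On HFD it was 3 with edgeR (18.6% of all genes), 5 with DESeq2's Wald test (22.3%) and 10 with voom and the pools (36.3%). When a mouse was left out it was 2 to 6, against 11.3% to 21.1% of all genes. The HFD count was 2 without WT HFD mouse 5 and 6 without WT HFD mouse 4 or Adn-Lpin1-/- HFD mouse 5. By diet, voom called 1 gene in WT (against 5.13% of all genes) and, with the pools, 3 in WT (14.8%) and 5 in Adn-Lpin1-/- mice (17.9%), and for the difference of the genotype effect between diets voom with the pools called 1 (1.45%). The log2 difference of Hspa5 on LFD changed sign in 2 of 29 alternatives, at 0.0699 without WT LFD mouse 1 and 0.0604 without WT LFD mouse 2, and ran from -0.29 to 0.07 when any mouse was left out. The causes were not tested. The calls of Ern1 on LFD and of Ddit3 and Atf3 on HFD were kept in all 29 alternatives each. Over all genes tested, the deviations of same-numbered mice had a median correlation of -0.01 over 30 pairs, 6 above 0.1. Of 20 mice, 5 correlated best with their own number, so the numbers were not taken as pairs. The check was not made for the 35 genes alone. Hspa5 was highest in mice 1 and 2 of WT LFD, Adn-Lpin1-/- LFD and WT HFD, and lowest in mice 1 and 2 of Adn-Lpin1-/- HFD. Whether sample order had a part in this was not tested. With the replicate number as a block, 1, 3, 0, 0 and 0 genes were called in the 5 comparisons, as without it. The shares of all genes with the block were 11.7%, 15.4%, 0.69%, 1.64% and 0.0%. Atf3 and Asns rest on counts as low as 13 and 21 per library, which limits their precision.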

Other observations

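Chaperones of other compartments were compared with those of the ER. Of 12 mitochondrial chaperones and proteases, 3 were lower in Adn-Lpin1-/- livers on HFD, among them Hspa9, the mitochondrial HSP70, by a log2 difference of -0.22 (adjusted p = 0.00679 by edgeR), and 0 were called on LFD. Of all genes tested, 8.11% were called lower on LFD and 8.78% on HFD. Of 16 cytosolic heat shock genes 1 was called on each diet, Hspb1, a small heat shock protein, at 1.07 (adjusted p = 0.0159) on LFD and 0.84 (adjusted p = 0.0396) on HFD. Of 13 clock and clock output genes, 4 were called lower on LFD and 3 on HFD, where 8.11% and 8.78% of all genes tested were.

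The pooled libraries lay inside the range of their 5 mice for 34 of the 35 stress genes in each LFD group, and on HFD for 35 in WT and 31 in Adn-Lpin1-/- livers.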
